A study of Mus musculus with 8 samples.

Results

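Genes for the protein components of the mitochondrial ribosome were examined in follicular regulatory T (TFR) cells of the mouse spleen. The rule took every row of the deposited count table named Mrpl or Mrps followed by a number, with at least 100 counts summed over the 8 libraries. All 77 rows with such a name passed, of 24421 genes in the table. By symbol 48 belong to the large subunit and 29 to the small subunit. The rule used no comparison between genotypes.

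Mitochondrial ribosomes translate the few messages of the mitochondrial genome, which encode core subunits of the respiratory chain and ATP synthase. Their RNA is made inside the organelle, whereas all of their proteins are encoded in the nucleus and imported. The small subunit decodes the message, and the large subunit joins amino acids and sits at the inner membrane. T cells depend on this translation to sustain respiration after activation.

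The study compared 4 WT libraries with 4 libraries of the genotype named Blimp1-flox Foxp3-cre, written Blimp1-flox here, in which Foxp3 drives Cre in regulatory T cells against a floxed Blimp1 gene (Prdm1). All mice had 2 oral challenges with peanut and cholera toxin, an adjuvant, and spleens were taken at day 36. Splenic CD4+ T cells were enriched by kit and sorted as Foxp3-YFP+ CXCR5+ PD1+ cells. Age, strain, the number of floxed alleles and whether WT mice carried Cre are not stated in the sources used here. No source used here states that each library is a mouse of its own, so p-values measure the spread between these libraries, which may be partly technical.

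Blimp1-flox 1 held 16425538 counts, the fewest, and the other libraries held 22788722 to 27595939. Levels are given in CPM (counts scaled to the size of each library) after TMM scaling, which corrects for library composition. Prdm1 held 31.8 to 71.0 CPM in WT, against 7.53 to 16.6 CPM in Blimp1-flox libraries, so every library lay on the side of its label. The 10 T cell and TFR markers summed to 6095 to 7524 CPM in WT, against 6186 to 7306 CPM in Blimp1-flox, and none of them was at 0 in any library. Of these 10, Il2ra was called lower in Blimp1-flox (edgeR adjusted p = 0.0311), at 81.3 to 121 CPM in WT and 28.1 to 55.4 CPM in Blimp1-flox. Foxp3 held 72.5 to 105 CPM in WT and 55.7 to 75.5 CPM in Blimp1-flox, so its groups overlapped, and it was not called. The log2 fold change was positive for 5 of the 10 and negative for 5. In bulk RNA, fewer cells of a type and less RNA per cell cannot be told apart. The 12 B cell markers, none at 0 in any library, summed to 234 to 807 CPM in WT, the highest in WT 4, and to 207 to 275 CPM in Blimp1-flox, and 7 of them were lower in every Blimp1-flox library. The 10 myeloid markers summed to 102 to 149 CPM in WT, against 103 to 218 CPM in Blimp1-flox, and 2 of them, Lyz2 and Itgam, were at 0 in 1 library each. The myeloid sum was lowest in WT 2 and highest in Blimp1-flox 1, all 10 markers had a positive log2 fold change with none called, and Cd68 was higher in every Blimp1-flox library. Of 12 pancreas markers, Ins2 was at 0 in all 8 libraries and 9 others were at 0 in at least 1. Their sum was 33.1 to 66.0 CPM in WT and 51.6 to 99.7 CPM in Blimp1-flox, all 11 tested had a positive log2 fold change with none called, and Cela1 and Prss2 were higher in every Blimp1-flox library. WT 2, WT 4, Blimp1-flox 2 and Blimp1-flox 3 held more than 0.5 CPM of the pancreatic protease gene Cpa1, and the other 4 libraries held at most 0.122 CPM. Cpa1 does not order the libraries as the whole list does: Blimp1-flox 1, low in Cpa1, had a pancreas sum of 87.3 CPM, of which Cela1 made up 67.3 CPM. Cela1 also held 31.5, 33.2 and 39.7 CPM in WT 1, WT 3 and Blimp1-flox 4, where Cpa1, Pnlip and Cel were at 0. Whether the Cela1 reads came from pancreas RNA was not tested.

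Promoter sequences of RefSeq (GRCm38.p6), spanning 250 bases before to 50 bases after the start, were at hand for 68 of the 77 genes, as 74 windows. Those below belong to the only 2 members whose genotype groups did not overlap (Mrps27, Mrpl34), to a member of high fold change (Mrpl36), and to Mrps11 and Mrpl46, which start back to back. Only bases before the start that lie outside the exons of the deposited table are shown, and capitals mark matches to the ETS and YY1 motifs. They are CCGGAAG or its reverse complement (a core that ETS factors bind) in Mrps27 and Mrpl34. In Mrpl36 capitals mark the reverse complement of AAGATGGC (a YY1 core), and its stretch also holds the E-box CACGTG, left in lower case. The full windows of Mrps27 and Mrps11 also hold the YY1 core on either strand, but the stretches shown do not.
Mrps27 (chr13:99344679-99344785, plus strand): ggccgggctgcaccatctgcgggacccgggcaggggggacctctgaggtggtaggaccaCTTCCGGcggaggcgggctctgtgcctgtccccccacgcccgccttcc
Mrpl34 (chr8:71464676-71464925, plus strand): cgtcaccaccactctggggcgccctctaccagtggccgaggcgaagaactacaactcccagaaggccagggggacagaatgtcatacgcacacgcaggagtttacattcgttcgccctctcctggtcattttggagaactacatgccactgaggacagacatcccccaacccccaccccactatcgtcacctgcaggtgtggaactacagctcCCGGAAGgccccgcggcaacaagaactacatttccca
Mrpl36 (chr13:73330759-73331008, plus strand): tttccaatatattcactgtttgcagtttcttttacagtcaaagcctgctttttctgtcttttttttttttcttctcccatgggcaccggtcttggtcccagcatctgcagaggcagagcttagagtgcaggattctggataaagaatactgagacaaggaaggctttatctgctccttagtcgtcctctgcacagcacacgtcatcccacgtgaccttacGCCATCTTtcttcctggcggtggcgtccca
Mrps11, facing Mrpl46 (chr7:78783090-78783130, plus strand): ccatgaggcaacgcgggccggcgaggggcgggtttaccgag

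Searched on both strands, with overlaps between motifs allowed, CCGGAAG was present in 25 of the 74 member windows (33.8%), in 17.7% of the windows of other tested genes and in 8.86% of all windows. The AAGATGGC motif was present in 12 member windows (16.2%), against 4.38% for other tested genes and 2.75% for all windows. The palindromic NRF1 core was present in 3 windows (4.05%), those of Mrpl9, Mrpl32 and Mrpl39, against 2.12% and 0.971%. The E-box CACGTG, at 9.46%, and TATAAA, at 6.76%, had shares near those of other tested genes, at 9.94% and 7.13%. These matches describe letters in a window and do not show that a factor binds there.

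Head-to-head gene starts were common. A gene on the other strand began within 1000 bases of 27 members (35.1%), against 15.6% of all tested genes. The 2 member genes Mrps11 and Mrpl46 on chromosome 7 began 42 bases apart. Mrps12, which encodes a protein of the decoding centre, began 187 bases from Sars2, the mitochondrial seryl-tRNA synthetase gene. Mrpl47 faced Ndufb5, a gene of respiratory complex I. Members lay on 17 chromosomes, with 10 genes on chromosome 11 and 8 on chromosome 17.

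All 77 genes were clearly expressed. The median level per length, in TMM-scaled CPM per kilobase of exon, was 35.6, against 11.0 for all tested genes. Cytosolic ribosomal protein genes had a median of 174 and nuclear subunit genes of oxidative phosphorylation 118. Mrpl33 had the highest and Mrps25 the lowest level per kilobase in each of the 8 libraries. Mrpl33 encodes a small protein of the large subunit, and its mean level was 136 CPM per kilobase, ranging over libraries between 52.7 and 74.4 in plain CPM. Next came Mrpl42 at 120, Mrps21 at 112, Mrps6 at 110 and Mrpl52 at 107 CPM per kilobase. The lowest after Mrps25, at 3.23, were Mrpl1 at 5.82, Mrpl19 at 6.18, Mrpl17 at 8.0 and Mrpl50 at 9.17 CPM per kilobase. The plot of levels shows that libraries differed little beside the 42.1-fold range between genes.

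**Figure D1:**
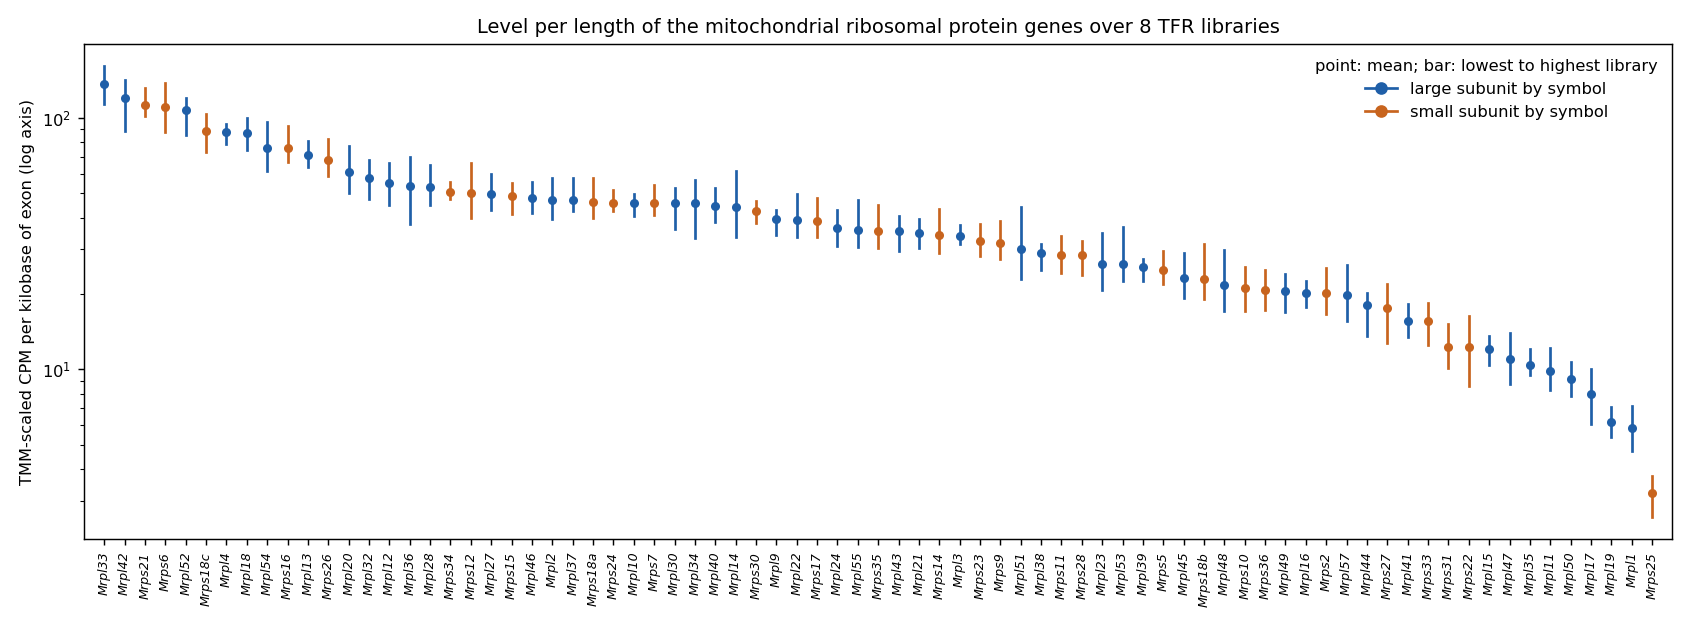
Level of each of the 77 genes in TMM-scaled CPM per kilobase of exon (log axis), ordered by mean; points are means over 8 libraries, bars run from the lowest to the highest library, blue is large and orange small subunit by symbol. Both subunits are spread over the whole range, from 136 for Mrpl33 to 3.23 for Mrps25.

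This order leans on the length column, which was therefore checked. The column equalled the merged exon length of its own intervals for all 77 genes. Lengths ran from 407 bases (Mrps21) to 6712 bases (Mrpl17), with a median of 1053 against 2826 over all tested genes. Across the 77 genes, level per kilobase and length had a Spearman correlation of -0.70, while plain CPM and length had one of 0.09. The plain CPM therefore spanned a smaller range, 11.8-fold, and the low rank of Mrps25, Mrpl1, Mrpl19 and Mrpl17 goes with exon totals of 4188 to 6712 bases.

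Against the length of the principal transcript in GENCODE M21, the column was more than 1.5 times as long for 1 gene, Mrpl41 (2423 bases, a ratio of 3.12). For 12 genes, among them Mrpl47 and Mrpl48, it was shorter by more than that factor. With GENCODE lengths the 5 highest genes stayed the same 5, with Mrps6 and Mrps21 tied at 102. Mrpl47 became the lowest, at 2.86 instead of 11.0 CPM per kilobase, and Mrpl48 went from 21.6 to 5.30. The 2 sets of levels had a Spearman correlation of 0.81 over the 77 genes.

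With the deposited lengths, large and small subunit genes had similar levels per kilobase, with medians of 36.0 and 34.2. With GENCODE lengths the medians lay further apart, at 33.6 and 24.5. Proteins whose structural name marks a bacterial counterpart (46 genes, called conserved) had a median of 41.9 CPM per kilobase. Those named as mitochondria-specific (30 genes) had one of 27.6. This second set includes Mrps18a and Mrps18b, although they are paralogs of bacterial S18. With GENCODE lengths the medians were 39.4 and 21.4. Mrps36 belongs to neither set: it carries the name but is known as a component of the oxoglutarate dehydrogenase complex.

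The summed level of the large subunit genes was 2101, 1826, 2008 and 2072 CPM in WT 1 to 4, against 2436, 1968, 2132 and 2252 CPM in Blimp1-flox 1 to 4. That of the small subunit genes was 1143, 1034, 1125 and 1152 CPM in WT, against 1353, 1106, 1201 and 1231 CPM in Blimp1-flox. The groups overlapped for both subunits, since Blimp1-flox 2 lay below WT 1, WT 3 and WT 4. The ratio of the large to the small sum was nearly constant, from 1.77 to 1.84 in WT and from 1.78 to 1.83 in Blimp1-flox. Both sums thus shared 1 order of libraries at the ends, lowest in WT 2 and highest in Blimp1-flox 1.

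**Figure D2:**
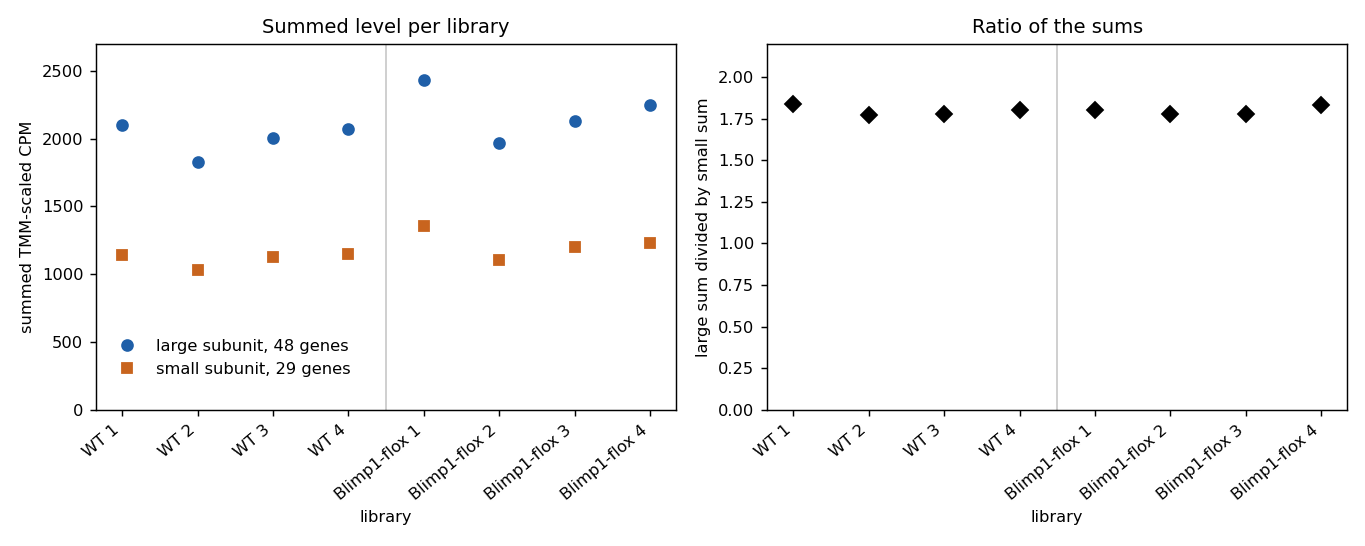
Left, summed TMM-scaled CPM of the 48 large and 29 small subunit genes in each library; right, the large sum divided by the small sum; WT libraries stand left of the grey line. Sums ranged over 1826 to 2436 and 1034 to 1353 CPM while the ratio stayed between 1.77 and 1.84.

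The same ends were seen gene by gene. Of the 77 genes 46 (59.7%) were highest in Blimp1-flox 1, as were 19.6% of all tested genes, and 41 (53.2%) were lowest in WT 2, as were 15.1% of all tested genes. No member was highest in WT 2 or Blimp1-flox 2. The median deviation from each gene's own mean was -0.189 (log2) in WT 2 and 0.227 in Blimp1-flox 1, and -0.092 to 0.084 in the other 6 libraries. Cytosolic ribosomal protein genes summed to 9597 CPM in WT 2 and 14274 CPM in Blimp1-flox 1, also the lowest and highest of the 8.

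**Figure D3:**
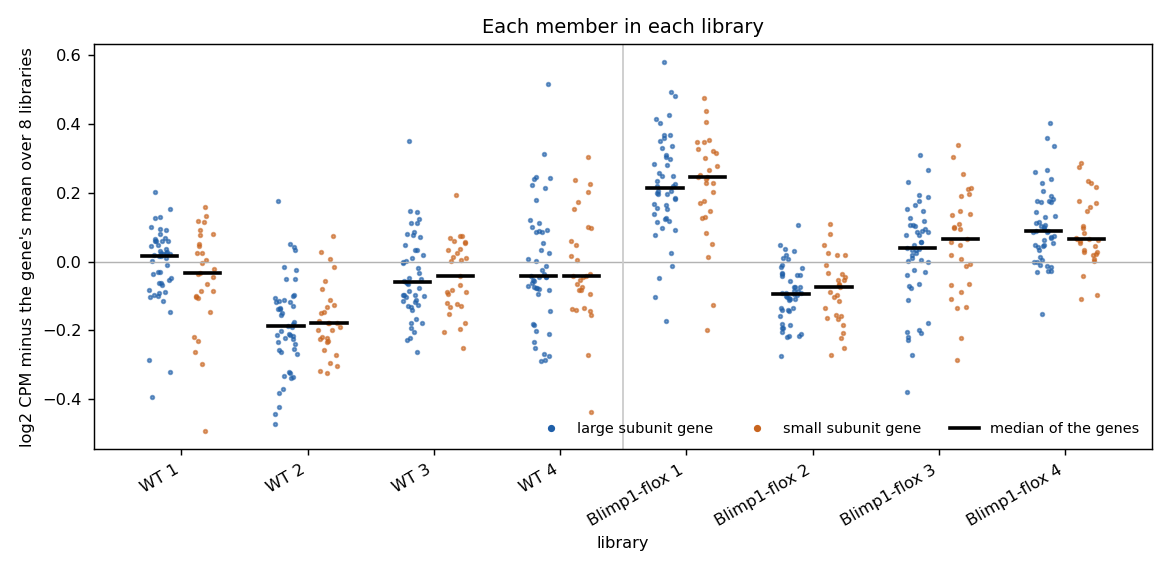
Log2 CPM of each member minus its mean over 8 libraries, by library; points are genes (blue large, orange small subunit), black bars medians over the genes of a subunit. Both subunits moved together, with medians for all members of -0.189 in WT 2 and 0.227 in Blimp1-flox 1.

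Blimp1-flox and WT libraries differed by no called change in any of the 77 genes, all of which passed the filter on low counts. By edgeR's quasi-likelihood test 0 of 77 had an adjusted p under 0.05 (lowest 0.184), where 62 of 12363 tested genes (0.501%) did. DESeq2 and limma-voom with quality weights also called 0 members, with lowest adjusted p of 0.0800 and 0.0681, while calling 3.66% and 4% of all tested genes. At an unadjusted p under 0.05 edgeR gave 14 of 77 members (18.2%), all with higher levels in Blimp1-flox. Of all tested genes 7.11% were so in that direction, 9.05% in the other and 16.2% in either. At the same unadjusted p DESeq2 gave 14 of 77 members, against 17.2% of all tested genes in either direction. For limma-voom it was 22 of 77 members, against 23.8% of all tested genes in either direction. The groups did not overlap in 2 members (2.6%), both higher in Blimp1-flox, against 3.75% of all tested genes in that direction, 4.72% in the other and 8.47% in either.

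The members' log2 fold changes, Blimp1-flox against WT, were small and mostly positive. Of 77, 68 were above 0 (88.3%), against 50.1% of all tested genes. The median was 0.13, with quartiles of 0.07 and 0.22, and the median of all tested genes was 0.00. Standard errors ran from 0.09 to 0.20. For 70 of the 77 genes the 95% interval lay within a 1.5-fold change in either direction, and the other 7 were Mrpl14, Mrpl17, Mrpl34, Mrpl36, Mrpl51, Mrpl53 and Mrps27.

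The median depended on single libraries and on gene length. Without Blimp1-flox 1, the library with the fewest counts, it was 0.064, against 0.132 with all libraries. Without the length trend of each library the median was 0.059, with 56 of 77 above 0. Among the 4 libraries above 0.5 CPM of Cpa1 it was 0.064 and among the other 4, which include Blimp1-flox 1, 0.202. That split was made after the data were seen, rests on 1 gene and does not separate libraries free of pancreas RNA.

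**Figure D4:**
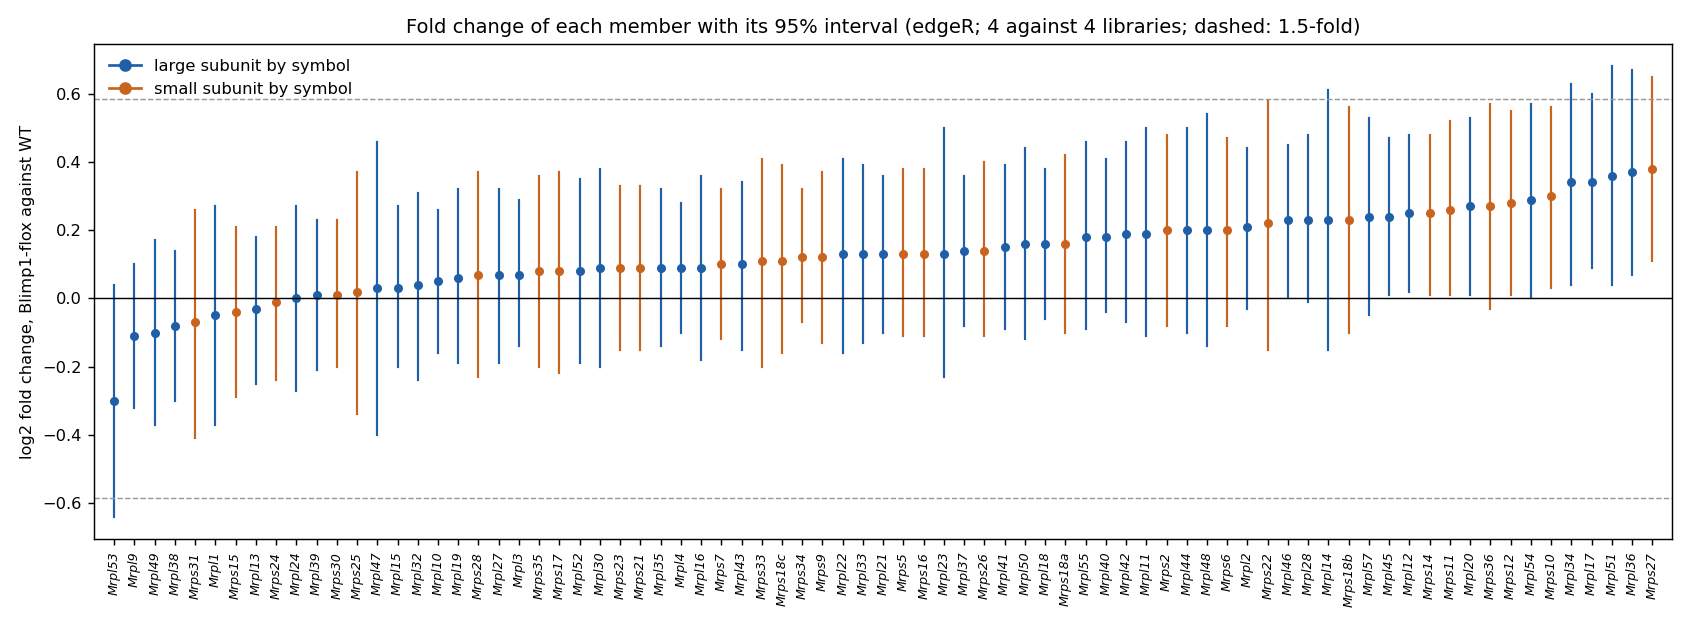
Log2 fold change of each member, Blimp1-flox against WT (edgeR), in rising order with its 95% interval; blue is large, orange small subunit by symbol, dashed lines mark 1.5-fold. Points run from -0.30 (Mrpl53) to 0.38 (Mrps27), and 68 of 77 lie above 0.

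Short genes as a whole had positive fold changes in these libraries. Log2 fold change and exon length had a Spearman correlation of -0.22 across 12363 tested genes and of -0.09 across the members. Below 750 bases the 18 members had a median of 0.13 and 474 other tested genes one of 0.11. From 750 to 1000 bases the medians were 0.13 (13 members) and 0.10 (474 others), and from 1000 to 1500 bases 0.14 (23 members) and 0.08 (1269 others). From 1500 to 2500 bases they were 0.12 (16 members) and 0.04 (2943 others), and above 2500 bases 0.06 (7 members) and -0.04 (7126 others). The member median lay above that of the other genes in each of the 5 classes.

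**Figure D5:**
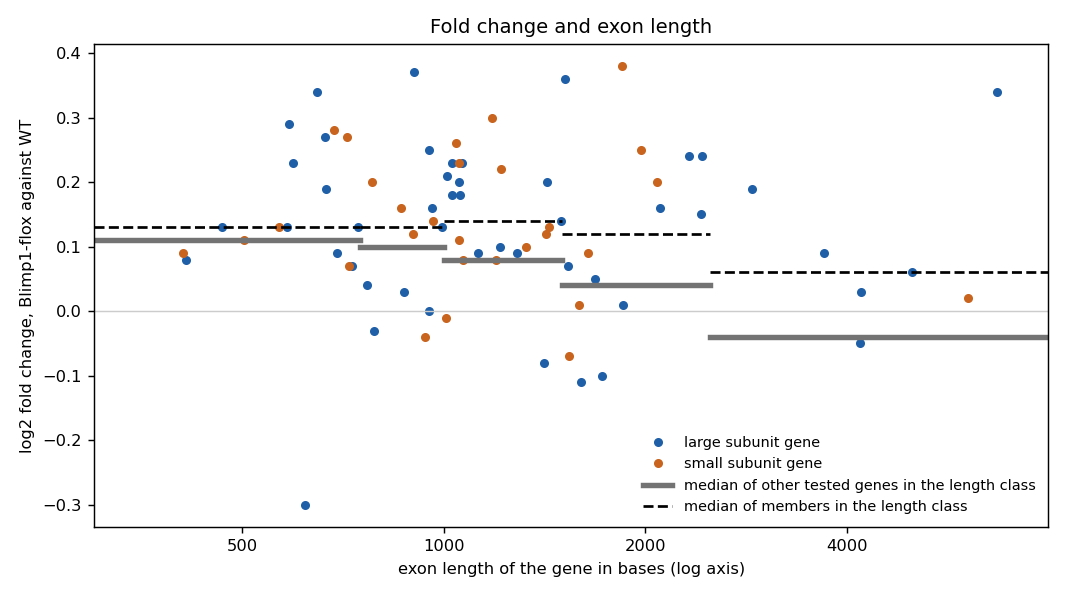
Log2 fold change of the 77 members (blue large, orange small subunit) against exon length in bases (log axis); thick grey lines are medians of the other tested genes and dashed lines medians of the members in 5 length classes. Grey medians fall from 0.11 below 750 bases to -0.04 above 2500 bases, and the member medians lie at 0.06 to 0.14.

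The subunits did not separate. Large subunit genes had a median of 0.13 with 42 of 48 above 0, and small subunit genes 0.12 with 26 of 29 above 0. The difference of the medians was 0.011, and 0.012 when Mrps30 and Mrps18a, which are built into the large subunit in spite of their names, were moved to it. Conserved members had a median of 0.12 and mitochondria-specific ones 0.15. Members with CCGGAAG in a promoter window (25 genes) had a median of 0.13 and those without it (43 genes) 0.14.

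Mrps27, a mitochondria-specific protein of the small subunit that binds RNA, had the highest fold change. It held 27.3, 28.1, 33.0 and 23.5 CPM in WT 1 to 4, against 40.5, 33.6, 36.8 and 35.2 CPM in Blimp1-flox 1 to 4. Every Blimp1-flox library was above every WT library, the nearest pair being WT 3 and Blimp1-flox 2. The log2 fold change was 0.38 ± 0.12 (SE; edgeR adjusted p = 0.184). Mrps27 lies on chromosome 13 from 99344786 to 99415561 in mm10, and its exons overlap those of 6430562O15Rik, so its counts are uncertain.

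Mrpl34, a short conserved protein of the large subunit, was the other gene without overlap. It held 29.7, 21.4, 29.3 and 23.8 CPM in WT, against 33.9, 31.3, 29.8 and 36.7 CPM in Blimp1-flox. The highest WT and the lowest Blimp1-flox library were nearly equal. Its log2 fold change was 0.34 ± 0.13 (SE; edgeR adjusted p = 0.254), and it lies on chromosome 8 from 71464926 to 71465753 in mm10.

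The other high fold changes belonged to large subunit genes. Mrpl36 held 48.7, 34.2, 44.2 and 41.3 CPM in WT, against 61.2, 44.0, 50.1 and 62.8 CPM in Blimp1-flox, where Blimp1-flox 2 fell inside the WT range (0.37 ± 0.14 (SE), edgeR adjusted p = 0.231). Mrpl51 held 41.3, 34.6, 41.2 and 42.6 CPM in WT, against 66.8, 43.0, 41.4 and 53.6 CPM in Blimp1-flox (0.36 ± 0.15, edgeR adjusted p = 0.269). Its fold change was carried by Blimp1-flox 1 and 4, since the other 2 libraries lay beside WT. Mrpl17 held 53.7, 40.7, 48.1 and 46.8 CPM in WT, against 67.0, 60.7 and 62.6 CPM in Blimp1-flox 1, 3 and 4, while Blimp1-flox 2 lay between WT 3 and WT 1 (0.34 ± 0.12, edgeR adjusted p = 0.198).

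Mrpl53 had the lowest fold change, -0.30 ± 0.16 (SE; edgeR adjusted p = 0.366). It held 14.9, 18.1, 15.8 and 22.9 CPM in WT, against 14.2, 13.9, 15.6 and 14.4 CPM in Blimp1-flox. WT 4 was the high library, and Blimp1-flox 3 lay above WT 1. Exons of Mrpl53 overlap Ccdc142, so its counts are uncertain. Mrpl9, Mrpl49, Mrpl38 and Mrps31 followed, at log2 fold changes of -0.11, -0.10, -0.08 and -0.07 (edgeR adjusted p = 0.616 to 0.854). Mrpl49 and Mrpl38 changed sign when WT 4 and Blimp1-flox 3 were both left out, and Mrps31 when WT 4 alone was.

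Several members were picked by their role in the ribosome. Mrps12, of the decoding centre, held 35.1, 27.3, 31.1 and 30.8 CPM in WT, against 45.1, 36.7, 33.9 and 35.1 CPM in Blimp1-flox (log2 fold change 0.28 ± 0.12, SE; edgeR adjusted p = 0.295). Blimp1-flox 3 lay below WT 1, so the groups overlapped. Mrpl12, whose copies form the stalk that recruits translation factors, held 49.5, 44.3, 53.4 and 42.9 CPM in WT, against 62.8, 51.1, 55.6 and 56.5 CPM in Blimp1-flox (0.25 ± 0.11, edgeR adjusted p = 0.280). Mrpl11, at the base of that stalk, had 0.19 ± 0.14 and Mrpl3, near the peptidyl transferase centre, 0.07 ± 0.10 (SE; edgeR adjusted p = 0.525 and 0.747).

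Mrpl45, which faces the inner membrane near the exit of the nascent chain, held 52.8, 46.8, 52.6 and 54.2 CPM in WT, against 70.2, 53.1, 61.9 and 58.4 CPM in Blimp1-flox. Only Blimp1-flox 2 lay within the WT range, and the log2 fold change was 0.24 ± 0.11 (SE; edgeR adjusted p = 0.297). Mrpl44, a protein with a ribonuclease fold, had 0.20 ± 0.14, from WT levels of 19.3 to 28.1 CPM and Blimp1-flox levels of 24.8 to 28.6 CPM (edgeR adjusted p = 0.490). Mrps34, a mitochondria-specific small subunit protein, was at 43.6 ± 1.04 CPM in WT, against 47.5 ± 2.32 CPM in Blimp1-flox (SD, n = 4). Mrps15 had -0.04 and kept no direction when libraries were left out.

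The 3 vertebrate paralogs of bacterial S18 had like fold changes. Mrps18a, part of the large subunit, held 35.1 to 40.2 CPM in WT, against 34.4 to 49.6 CPM in Blimp1-flox (log2 fold change 0.16 ± 0.12, SE). Mrps18b held 20.3 to 23.9 CPM in WT, against 20.0 to 33.1 CPM in Blimp1-flox (0.23 ± 0.15), and Mrps18c 36.6 to 51.6 CPM and 40.2 to 52.4 CPM (0.11 ± 0.13). Each overlapped between the groups (edgeR adjusted p = 0.468 to 0.686). Mrps30, the other large subunit protein with a small subunit name, had 0.01 ± 0.10, and Mrps36 0.27 ± 0.14 (SE; edgeR adjusted p = 0.960 and 0.357). Pseudogenes named for Mrps36, Mrpl23 and Mrpl48 exist in GENCODE M21, so counts of these 3 genes may be split with near copies. Besides Mrps27 and Mrpl53, exons of Mrpl19, Mrpl24, Mrpl41, Mrpl48, Mrpl49, Mrps6, Mrps23 and Mrps25 overlap another gene.

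The back-to-back genes Mrps11 and Mrpl46 had similar fold changes. Mrps11, near the platform of the small subunit, held 28.6, 25.1, 25.8 and 28.7 CPM in WT, against 32.7, 27.6, 35.2 and 34.3 CPM in Blimp1-flox (log2 fold change 0.26 ± 0.12, SE; edgeR adjusted p = 0.297). Mrpl46 held 50.9, 44.1, 43.2 and 43.0 CPM in WT, against 55.4, 47.7, 57.4 and 51.5 CPM in Blimp1-flox (0.23 ± 0.10, edgeR adjusted p = 0.301). In both, Blimp1-flox 2 was the 1 library inside the WT range. Sars2, which faces Mrps12, had 0.01 ± 0.11 beside 0.28 for Mrps12.

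Other genes of mitochondrial translation were likewise uncalled, 0 of 74 listed and tested in edgeR. For the 5 mitoribosome subunits without an Mrp symbol the median was 0.04 (log2 fold change), with Dap3, a GTP-binding small subunit protein, at 133 ± 5.28 CPM in WT, against 139 ± 3.57 CPM in Blimp1-flox (SD, n = 4). The large subunit gene Mrpl58, listed under its older symbol Ict1, was therefore no member by name and had 0.19 ± 0.10 (SE; edgeR adjusted p = 0.402). Aurkaip1 and Ptcd3, both of the small subunit, had 0.08 and -0.17.

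The 15 translation factor genes had a median of 0.01, with 8 above and 7 below 0. Mtif2, the initiation factor that brings the first tRNA, held 54.2, 60.9, 54.4 and 67.8 CPM in WT, against 44.6, 52.1, 48.6 and 46.7 CPM in Blimp1-flox. All Blimp1-flox libraries were below all WT libraries (-0.30 ± 0.10, SE; edgeR adjusted p = 0.198). Mtrf1, of the release factor family, had 0.41 ± 0.23. The 22 assembly and rRNA modification genes had a median of 0.09, from -0.39 ± 0.18 for the GTPase gene Gtpbp10 to 0.32 ± 0.12 for the methyltransferase gene Mrm1 (edgeR adjusted p = 0.315 and 0.228). At an unadjusted p under 0.05 in edgeR, 1 of the 15 translation factors was lower. Of the 22 assembly genes 1 was higher and 1 lower. Among all tested genes 7.11% were higher and 9.05% lower at that p, so these counts do not stand out.

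The 20 aminoacyl-tRNA genes had a median of 0.12, and 2 were higher at an unadjusted p under 0.05. Lars2, the leucyl-tRNA synthetase gene, stood apart at 244 CPM per kilobase, where the other 19 lay between 1.48 and 26.0. It held 998, 489, 666 and 734 CPM in WT, against 2162, 758, 685 and 1074 CPM in Blimp1-flox (0.70 ± 0.40, SE; edgeR adjusted p = 0.432). Lars2 was lowest in WT 2 and highest in Blimp1-flox 1, as the members' sums were, and its part in their order was not tested. Whether all reads counted for Lars2 came from its own mRNA was not tested either. The lowest fold change was that of Gatb, of the glutaminyl-tRNA amidotransferase, at -0.25 ± 0.16.

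The 12 genes of mitochondrial transcription and its nuclear regulators had a median of -0.02, with 0 at an adjusted p under 0.05 in edgeR. At an unadjusted one 1 of the 12 was lower, as were 9.05% of all tested genes. Nrf1, Gabpa and Yy1, whose proteins bind motifs searched above (Gabpa for the ETS core), had 0.07, -0.12 and 0.19 (edgeR adjusted p = 0.781, 0.614 and 0.559). Tefm, a transcription elongation factor gene, had 0.36 ± 0.18. Myc, a growth regulator, held 112, 114, 109 and 179 CPM in WT, against 66.8, 84.0, 144 and 83.2 CPM in Blimp1-flox (-0.44 ± 0.25, SE; edgeR adjusted p = 0.409).

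The median log2 fold change was 0.11 for cytosolic ribosomal protein genes (77 tested), of which 94.8% were above 0, and 0.20 for nuclear oxidative phosphorylation subunit genes (76 tested), of which 94.7% were. Neither set held a called gene, and the difference from the mitochondrial ribosomal protein genes was not tested. The 16 proliferation markers summed to 1462 to 1701 CPM in WT, against 1565 to 2207 CPM in Blimp1-flox, highest in Blimp1-flox 3. Of these markers 1, Ccnb1, was called and higher in Blimp1-flox. The median log2 fold change of the 16 was 0.49, with 15 above and 1 below 0. At an unadjusted p under 0.05 in edgeR, 7 were higher (43.8%, against 7.11% of all tested genes) and 0 lower. In Blimp1-flox 1, where the members were highest, the proliferation sum was 1565 CPM. The part of library depth, of proliferation and of B cell, myeloid and pancreas RNA in the members' shift was not tested.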

How the data were processed

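Libraries were made from RNA of sorted TFR cells (KAPA mRNA HyperPrep), per the labels' protocols. The authors deposited 1 table of raw counts per gene for 8 libraries, with an exon length column. STAR 2.5.2b, featureCounts of Subread 1.5.1 and mm10 are named in the submitters' processing notes. The annotation and strand setting are not given in the sources used here. Antisense and overlapping genes could therefore share reads.

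Counts were tested with edgeR 4.0.16 in R 4.3.3 (filterByExpr, TMM scaling, robust quasi-likelihood F test, genotype as the only term). Benjamini-Hochberg adjustment ran over all 12363 tested genes, with a call at an adjusted p under 0.05. The prior count was 2 for log2 CPM in the length trend and in the correlations of same-numbered libraries. The deviations used log2 CPM without a prior count. The script was tested on simulated data. Members and lists were chosen with earlier results of these data known. Named members were those with the 5 highest and 5 lowest fold changes, the 5 highest and 5 lowest levels per kilobase, a set picked by role (Dap3 and Ict1 among them), and members without overlap. From the context lists the highest and lowest fold change were named. Mrps11, Mrpl46, Sars2, Nrf1, Gabpa and Yy1 were described in addition, after their values were seen. Alternatives included DESeq2 1.42.0, limma 3.58.1 (voom with quality weights), other scalings and filters, a length trend fitted by lowess, a replicate block, and leaving out libraries.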

Additional observations from a re-analysis of the deposited data

Results flagged for a closer look

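Of 96 groups of 4 libraries checked, 2 held a library far from the other 3, and chance gives about 1 in 20. Neither gene is a mitochondrial ribosomal protein gene. Gatb, of the mitochondrial glutaminyl-tRNA amidotransferase, held 9.93 CPM in Blimp1-flox 3 and 13.5 to 13.9 CPM in the other Blimp1-flox libraries. Myc held 179 CPM in WT 4 and 109 to 114 CPM in the other WT libraries.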

How the results depend on the processing

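No member was called under any of the alternatives run, which included 3 other scalings, other filters, DESeq2, limma-voom, leaving out each library and 3 fits by Cpa1 level (above 0.5 CPM or not) that were added after the data were seen. Under the other scalings the members' median log2 fold change was 0.134 to 0.141, and with 1 library left out it was 0.064 (without Blimp1-flox 1) to 0.173 (without Blimp1-flox 2), with 62 to 72 of 77 above 0. The number of members at an unadjusted p under 0.05, 14 with all libraries, was 22 by limma-voom, 7 with the length trend removed, 1 among the 4 libraries above 0.5 CPM of Cpa1, and 2 to 18 with 1 library left out. It was 2 without WT 2, Blimp1-flox 1 or Blimp1-flox 4, 7 without WT 3, 8 without WT 4 and 9 without Blimp1-flox 3. The cause was not tested. With the replicate number as a block, 0 members were called and the median was 0.129. At an unadjusted p under 0.05 were 16 members, and 17.2% of all tested genes. Same-numbered libraries had correlations of -0.108 to 0.153, so the numbers were not taken to pair them.

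Some log2 fold changes near 0 changed sign. With the length trend removed Mrps21 had -0.037, Mrpl52 -0.035, Mrps18c -0.0033 and Mrps30 -0.035, and by limma-voom Mrpl1 had 0.064. With WT 4 and Blimp1-flox 3 both left out Mrpl49 had 0.034, Mrpl38 0.0078, Mrpl1 0.031 and Mrps30 -0.056. Among the 4 libraries below 0.5 CPM of Cpa1 Mrpl9 had 0.0072, Mrpl49 0.1, Mrps31 0.04, Mrpl52 -0.014, Mrpl1 0.17, Mrps30 -0.059 and Dap3 -0.0081. Among the 4 above it Mrpl33 had -0.021, Mrps21 -0.017, Mrps25 -0.2, Mrpl19 -0.1, Mrps15 0.099 and Mrps18c -0.033, and with that split as a term Mrps25 had -0.00036. With 1 library left out the log2 fold change of Mrps31 ranged from -0.17 to 0.023, of Mrpl52 from -0.0029 to 0.15, of Mrps25 from -0.074 to 0.11, of Mrpl1 from -0.15 to 0.054, of Mrps15 from -0.11 to 0.017 and of Mrps30 from -0.035 to 0.061. The cause was not tested. With standard errors of 0.09 to 0.20 at these depths, changes of the size of the members' median were not detectable gene by gene.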
